A study of Mus musculus with 9 samples.

Results

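Tspo encodes the translocator protein, and its messenger RNA was followed here through the cell types of EPZFTA-RELA ependymomas and control brains. It is 1 gene of 32285 in the deposited count tables. It was chosen by its rise over all cells of the 5 tumors, so its tumor and control levels are given below as a description, without a test. The gene lies on the plus strand of chr15:83563592-83574203 in the mouse build GRCm38, with the identifier ENSMUSG00000041736. Single cells were profiled by droplet-based 5′ RNA sequencing from 5 tumor-bearing mice of genotype NestinCreERT2;Fus1 and from the brains of 4 control mice of genotype NestinCreERT2;TdT, all aged 6 to 8 weeks. Both groups carry the tamoxifen-inducible Cre recombinase under the Nestin promoter. The Fus1 allele places the ZFTA-RELA fusion with luciferase behind a stop cassette at Rosa26, so only cells descended from Nestin-expressing progenitors can carry the recombined allele. The labels name the TdT reporter in the genotype of the controls, while the study also describes TdTomato fluorescence in tumor-bearing mice. The effects of the fusion and of the tumor cannot be told apart. Cells were depleted of Ter119-positive erythroid cells before loading. The choroid plexus was dissected away according to the methods.

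The translocator protein sits in the outer mitochondrial membrane, where it binds cholesterol and porphyrins. It was long studied as the peripheral benzodiazepine receptor and as a helper of steroid synthesis, a role that knockout mice have called into question. In the healthy brain it is mainly found in microglia, blood vessels, ependyma and choroid plexus. Its ligands are used in positron emission tomography as markers of activated microglia and macrophages.

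Each mouse was treated as 1 sample, and the UMIs of its cells were summed, where a UMI is a molecular barcode that marks 1 captured RNA molecule. Levels are counts per 1000000 UMIs (CPM). The control libraries held 101057563 to 178074108 UMIs on mouse genes, and the tumor libraries 14967428 to 69391807. After filtering, 4026 to 6365 cells per control and 1722 to 5099 cells per tumor remained, 20408 and 15894 in all. Median UMIs per cell were 2032 to 4119 in controls and 2068 to 6531 in tumors. The 28 pairs of libraries that leave out control replicate 4 shared 1 to 9 cell barcodes. Cells were assigned by marker gates, that is by UMIs of lists of marker genes in excess of those in free RNA, estimated from the 3000 barcodes with fewest UMIs in each library. These barcodes had median UMIs of 691 to 1338 in controls and 559 to 649 in tumors. They may therefore include cells, and their depth differed between the groups, which limits every comparison with free RNA below. A type was measured in a mouse with at least 20 gated cells. Tumor cells were taken as cells of the tumors that passed no other gate and had a UMI of the fusion allele (fusion sequence, luciferase or internal ribosome entry site), or passed a gate of cycling genes or of Igf2, H19 and Dlk1. A UMI of the fusion allele was seen in 6.56% to 84.6% of the cells of a tumor that passed no other gate, beside 0.678% to 21.0% of its myeloid and 0% to 21.4% of its endothelial cells, so a single UMI is weak evidence where that background is high.

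Independent marker genes followed the labels of the myeloid and endothelial gates. Trem2, a lipid receptor of microglia and macrophages, reached 1284 to 2066 CPM in the myeloid cells of the tumors and 555 to 903 CPM in those of the controls, against means of 257 and 30.5 CPM over all cells. Kdr, a receptor for vascular endothelial growth factor, was at 221 to 514 CPM and 236 to 311 CPM in endothelial cells. The neuron gate failed in tumor replicate 4. There 99 of the 113 neuron-gated cells had a fusion-allele UMI, and the neuronal genes Grin2b and Dlgap1 were at 1.51 and 3.01 CPM, against 397 to 869 and 245 to 669 CPM in the other 4 tumors. Means over the neurons of the tumors are therefore given with and without that mouse. In controls the neuron gate was only weakly borne out. Grin2b averaged 608 CPM in the gated cells and 583 CPM over all cells, and Dlgap1 483 and 439 CPM. Stmn2, a further neuronal gene, averaged 447 CPM in them, below 474 CPM over all cells and 763 CPM in free RNA. Meg3 and Rian held 64.2% to 66.0% of the gate-marker UMIs there. The astrocyte gate is also weak, since 104 of 197 gated cells in tumors and 55 of 106 in controls lay near its limit.

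Over all cells, Tspo was low in every control and far higher in every tumor. Control replicates 1 to 4 had 12.7, 12.1, 11.9 and 9.02 CPM. Tumor replicates 1 to 5 had 129, 115, 111, 80.6 and 82.2 CPM. The groups do not overlap, which the choice of the gene made likely. The means were 103 ± 21.2 CPM (SD, n = 5) and 11.4 ± 1.65 CPM (SD, n = 4), a 9.05-fold ratio, or 2.39 on the log2(CPM + 10) scale. Free RNA carried Tspo too, at 12.5 to 15.1 CPM in controls and 44.5 to 86.1 CPM in tumors. The level over all cells was thus below that of free RNA in all 4 controls and in tumor replicate 4. In sums over all cells, more cells of a Tspo-rich type and more Tspo RNA per cell cannot be told apart, so each type was examined on its own.

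**Figure D1:**
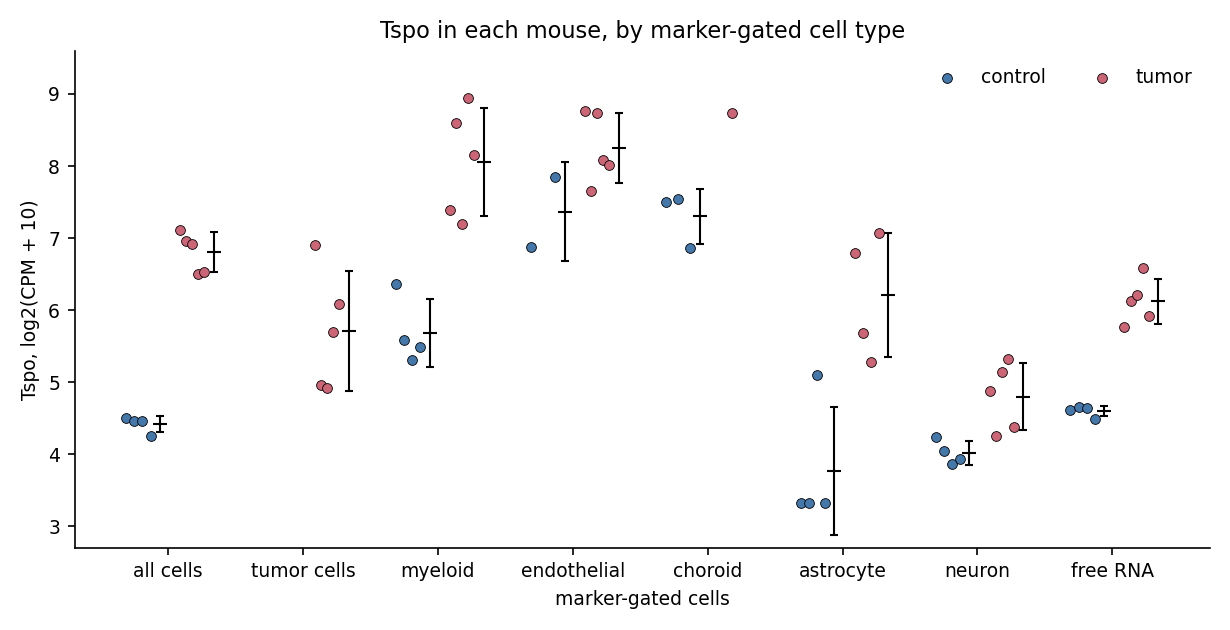
Tspo in log2(CPM + 10) for each mouse (points), by marker-gated cell type and in free RNA, with bars for the mean ± SD where there was more than 1 mouse. Myeloid, endothelial and choroid cells lie highest in tumors, and among the cell types plotted neurons have the lowest mean there and astrocytes in controls, and the tumor points lie above the control points in most columns.

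Myeloid cells, here microglia and macrophages together, had a high level of Tspo in tumors. Their level was 158, 377, 136, 484 and 274 CPM in tumor replicates 1 to 5, from 269 to 603 cells each. It was 72.5, 37.8, 29.6 and 34.8 CPM in control replicates 1 to 4, from 114 to 185 cells each. Every tumor lay above every control, with means of 286 ± 147 CPM (SD, n = 5) and 43.7 ± 19.5 CPM (SD, n = 4). Myeloid cells were above the free RNA of their own library in 9 of 9 mice. With each cell thinned to 1000 UMIs, 21.8% ± 10.4 of tumor myeloid cells and 3.86% ± 1.59 of control myeloid cells had a Tspo UMI (SD over 5 and 4 mice, no cell left out). Without thinning the shares were 57.2% and 10.6%. Neurons, which were below free RNA in every mouse, give the background of such shares, 1.91% in tumors (1.75% without tumor replicate 4) and 0.634% in controls after thinning. Median UMIs per cell were 1895 to 3914 in control and 2418 to 6139 in tumor myeloid cells, and 2174 to 4341 and 1475 to 5513 in neurons.

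The myeloid difference moved with free RNA. The 12 myeloid gate markers together made up 42091 to 52974 CPM in the tumors and 17098 to 21296 CPM in the controls, so that the controls' own markers were 2.39-fold lower. In the other direction, the 14 neuron gate markers reached 4334 to 5316 CPM in control myeloid cells and 106 to 1678 CPM in those of the tumors, with no neuron marker at 0 in either group. If all of these neuronal UMIs came from free RNA, it made up 69.0% to 83.6% of the UMIs in control myeloid cells and 5.43% to 27.9% in tumor myeloid cells. With this estimate taken away, Tspo in myeloid cells was 202, 431, 140, 551 and 347 CPM in tumor replicates 1 to 5. In control replicates 1 to 4 it was 368, 113, 62.3 and 99.1 CPM. The groups then overlapped through control replicate 1, and the ratio of the means was 2.08 in place of 6.54. The control mean in that ratio, 161 CPM, lies above every control but replicate 1, so the ratio leans on that mouse. Counted per 1000 UMIs of the myeloid markers themselves, Tspo had 6.29 ± 3.35 UMIs in tumors (SD, n = 5) and 2.34 ± 1.29 in controls (SD, n = 4), a 2.69-fold ratio with overlap. The size of the myeloid difference therefore depended on how free RNA was treated, and the tumor mean was the higher in each of these measures.

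**Figure D2:**
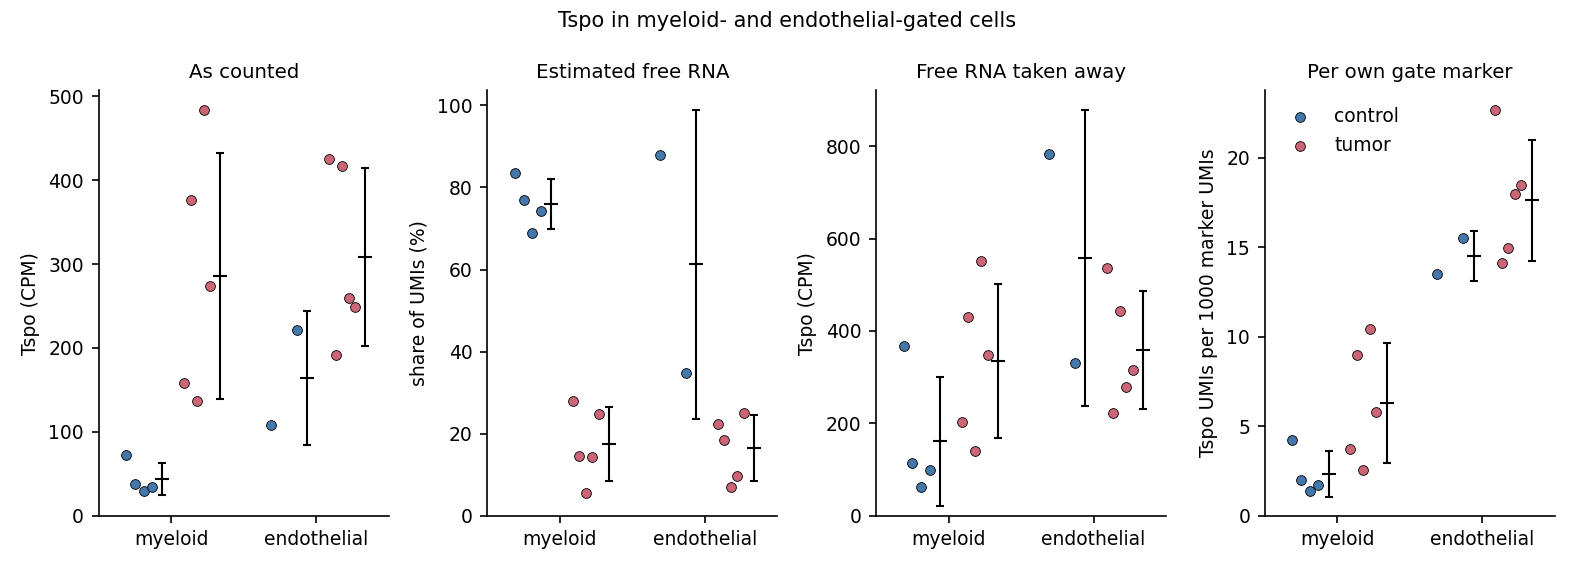
Tspo in myeloid- and endothelial-gated cells of each mouse (points; bars, mean ± SD), from left to right as counted in CPM, the share of UMIs estimated as free RNA in percent, Tspo in CPM with that share taken away, and Tspo UMIs per 1000 UMIs of the gate's own markers. The groups are apart for myeloid cells as counted and overlap in the 2 right panels, and the mean estimated free RNA is higher in the control cells of both types.

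Endothelial cells, which line the vessels, had a high level in both groups. Tumor replicates 1 to 5 had 426, 192, 417, 260 and 248 CPM, a mean of 309 ± 106 CPM (SD, n = 5). Only control replicates 2 and 3 reached 20 endothelial cells, with 108 CPM from 11 Tspo UMIs (exact 95% Poisson interval 53.9 to 193) and 221 CPM from 27 (146 to 322), intervals that cover counting error only. Control replicates 1 and 4, with 17 and 18 cells, had 94.8 and 90.6 CPM. The 2 measured controls averaged 164 ± 80.0 CPM (SD, n = 2), and the groups overlapped. Per 1000 UMIs of the endothelial markers, Tspo had 17.6 ± 3.38 UMIs in tumors and 14.5 ± 1.39 in controls, close to each other beside the spread. With estimated free RNA taken away the order turned, to 359 ± 128 CPM in tumors and 557 ± 321 CPM in controls. That estimate put 87.9% of the UMIs of control replicate 2 down to free RNA, and its value was 784 CPM. The order of tumor and control endothelium thus depended on the measure and rests on 2 controls. The contrast was not tested, so no difference or likeness is read from it. Thinned to 1000 UMIs, 24.6% of tumor and 13.8% of control endothelial cells had a Tspo UMI.

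Cells of the mural, ependymal and choroid gates also held Tspo UMIs. Mural cells (pericytes and smooth muscle) had 185 ± 65.5 CPM in 4 tumors, and ependymal-gated cells 90.6 ± 41.4 CPM in 5 tumors, while too few were gated in the controls. The ependymal gate is weak, since 96 of 228 gated cells in tumors lay near its limit. Its independent marker genes Ak7, Spag6l and Dnah11 each had a minimum of 0 CPM over the tumors. In tumor replicate 3 these cells had 27.9 CPM from 3 Tspo UMIs, below free RNA at 64.2 CPM. Choroid plexus epithelium had 170, 177 and 106 CPM in control replicates 2 to 4. In tumor replicate 1, the only tumor with choroid cells, it had 416 CPM from 61 Tspo UMIs (exact 95% Poisson interval 318 to 535). In controls the choroid cells, although left in small numbers by the dissection, had a level above that of myeloid cells as counted. Oligodendrocytes and their precursors were at the low end. Oligodendrocytes had 28.1 ± 10.9 CPM in 4 tumors, and 1 and 0 Tspo UMIs in the 2 controls measured. Cells of the precursor gate had 14.0 ± 8.09 CPM in 5 tumors and 14.0 ± 3.15 CPM in 4 controls, the latter from 1 or 2 Tspo UMIs each. In tumor replicates 2 and 4, 22 of 59 and 99 of 201 cells of this gate had a fusion-allele UMI.

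Tumor cells had a lower level of Tspo than the myeloid and endothelial cells of the same mouse. Their level was 110, 21.1, 20.2, 41.7 and 57.6 CPM in tumor replicates 1 to 5, a mean of 50.1 ± 36.9 CPM (SD, n = 5) over 6013 cells. It was below the level in free RNA of the same library in replicates 2, 3 and 4. Tumor replicate 1 stood above the others, with an exact 95% Poisson interval of 83.6 to 142 CPM from 58 Tspo UMIs in 149 cells. Replicate 3, with 172 cells, had 11.8 to 32.3 CPM. The 3 kinds of evidence for a tumor cell gave values that were close in some mice and apart in others. In tumor replicate 3, cells with a fusion-allele UMI had 20.5 CPM, cycling cells 22.5 CPM and cells of the Igf2, H19 and Dlk1 gate 3.10 CPM, the last from 1 Tspo UMI. In tumor replicate 4, the same kinds had 41.6, 50.5 and 27.2 CPM. In tumor replicate 5 they had 56.9, 57.2 and 54.9 CPM. Thinned to 1000 UMIs, 4.33% ± 3.19 of tumor cells had a Tspo UMI.

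Neurons had little Tspo, and astrocytes had little in controls and a higher, uneven level in tumors. Astrocytes of control replicates 1, 2 and 4 held no Tspo UMI, which allows up to 57.6, 33.6 and 25.7 CPM (3 UMIs of each total), and control replicate 3 had 24.3 CPM from 4 UMIs. In tumor replicates 1, 2, 3 and 5 astrocytes had 101, 41.6, 28.9 and 125 CPM. Replicates 1 and 5 were above the free RNA of their library, at 44.5 and 50.3 CPM, replicates 2 and 3 were below it, and tumor replicate 4 had 4 astrocytes. The means were 74.1 ± 46.2 CPM (SD, n = 4) in tumors and 6.07 ± 12.1 CPM (SD, n = 4) in controls. The values do not overlap as counted, but the limits of control replicates 1 and 2 reach into the range of the tumors. Neurons had 8.87, 6.57, 4.54 and 5.26 CPM in control replicates 1 to 4 and 19.3, 9.12, 25.3, 30.1 and 10.8 CPM in tumor replicates 1 to 5. These are below free RNA in 9 of 9 mice, and are read as background. The log2 difference between the groups in neurons was 0.78 with tumor replicate 4 and 0.64 without it.

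The order of the types was tested within mice by two-sided exact sign-flip permutation tests of log2(CPM + 10). P-values were adjusted by the Benjamini-Hochberg method over 10 pairs of types. The order was not itself the rule that chose the gene. A rise over all cells is, however, larger for genes high in types commoner in tumors, and the tests include these tumors. Neurons held 61.3% of all UMIs in controls and 6.96% in tumors, so the p-values are not independent of the choice. Myeloid cells exceeded neurons in 9 of 9 mice, by 2.55 ± 1.09 (SD; exact adjusted p = 0.0391), and by 2.42 in 8 mice without tumor replicate 4 (exact adjusted p = 0.0391). They exceeded astrocytes in 8 of 8 mice, by 1.77 ± 1.04 (exact adjusted p = 0.0391). Astrocytes of control replicates 1, 2 and 4 held no Tspo UMI, so there the sign was fixed and the size depends on the 10 CPM added. The calls over neurons and over astrocytes were both lost when any of the mice other than tumor replicate 4 was left out, with every remaining mouse still of the same sign. Fewer mice raise the smallest possible exact p, so this loss was set by the number of mice. A mitochondrial limit of 10% lost the second (exact adjusted p = 0.357) and a stricter gate lost the first (exact adjusted p = 0.0938). Endothelial cells exceeded neurons in 7 of 7 mice by 3.44 ± 0.49 (exact adjusted p = 0.0521; without tumor replicate 4, 3.56 and exact adjusted p = 0.0781) and astrocytes in 6 of 6 by 2.44 ± 1.01 (exact adjusted p = 0.0781), just above the threshold. The unadjusted exact p of each was the smallest that 7 and 6 mice allow. With at least 10 in place of 20 gated cells, a setting added after seeing the data, control replicates 1 and 4 entered and both endothelial pairs passed (exact adjusted p = 0.0195). Over astrocytes the sign was again fixed in control replicates 1, 2 and 4 by their lack of Tspo UMIs, so this pass leans on those mice. Tumor cells were below myeloid cells in 5 of 5 tumors, with a difference of -2.35 ± 1.23, and below endothelial cells in 5 of 5, with a difference of -2.54 ± 0.79. The exact p for 5 mice cannot go below 0.0625, and the adjusted p was 0.104 for both.

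For several neighbours in this order no difference passed the test. Myeloid cells exceeded endothelial cells in 3 of 7 mice, with a mean difference of -0.69 ± 1.34 (exact adjusted p = 0.25). It was -1.92 in the 2 controls measured and -0.20 in the 5 tumors. Tumor cells minus astrocytes was -0.49 ± 0.48 in 4 tumors (exact adjusted p = 0.25), where the exact p cannot go below 0.125. Tumor cells minus neurons was 0.91 ± 0.94 in 5 tumors (exact adjusted p = 0.179) and 1.05 without tumor replicate 4. Designs of this size cannot show that such types are alike. Astrocytes exceeded neurons in 5 of 8 mice (exact adjusted p = 0.25), which pools 4 of 4 tumors at 1.55 ± 1.07 with 1 of 4 controls at -0.25 ± 1.00. The excess of myeloid cells over neurons was 3.26 ± 0.94 in 5 tumors, 3.17 ± 1.07 in 4 without tumor replicate 4, and 1.66 ± 0.31 in 4 controls. These differences between tumors and controls rest on the contrast by which the gene was chosen, and are given without a test.

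The types entered the level over all cells differently in the 2 groups. Neurons held 61.3% ± 3.11 of all UMIs in controls and 33.8% ± 8.05 of the Tspo UMIs, at a level below free RNA. In tumors neurons held 6.96% ± 9.36 of all UMIs and 1.14% ± 1.37 of the Tspo UMIs (8.26% and 1.26% without tumor replicate 4). Myeloid cells were 2.92% ± 0.18 of control cells and 12.8% ± 5.45 of tumor cells, and gave 10.0% ± 3.54 and 34.5% ± 17.0 of the Tspo UMIs. Endothelial cells gave 6.35% ± 5.39 in controls and 17.7% ± 15.8 in tumors. Tumor cells gave 16.8% ± 15.6 of the Tspo UMIs from 35.1% ± 25.9 of all UMIs. In control brains the choroid cells gave 11.8% ± 7.89 of the Tspo UMIs from 0.848% ± 0.53 of all UMIs. Cells that passed no gate gave 22.7% ± 2.96 of the Tspo UMIs in controls and 14.6% ± 9.46 in tumors, from 29.95% and 23.7% of all UMIs, and in tumor replicate 1 their 25.8% was the largest part. Among gated types the main carrier differed between tumors, with myeloid cells at up to 61.2% in 1 tumor and endothelial cells at up to 43.3% in another. In tumor replicates 4 and 5, where tumor cells held 72.4% and 42.1% of all UMIs, they gave 37.5% and 29.5% of the Tspo UMIs, about as much as the myeloid cells with 37.4% and 28.1%.

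Shares and levels of the types were also exchanged between the groups, as a description. Tumors with their own shares of types but the levels of the control types would have had 36.2 ± 3.96 CPM in place of 103, with tumor cells, which the controls lack, kept at their own level. Controls with their own shares but the levels of the tumor types would have had 48.5 ± 2.97 CPM in place of 11.4. Both values lie between the levels of the 2 groups. They use levels as counted, so the free RNA described above is part of them. Levels were pooled over the mice of a group and exchanged for every class. These include the neurons of tumor replicate 4, whose gate failed, and cells that passed no gate. Neurons and cells of no gate held 61.3% and 29.95% of all UMIs in controls, so the 48.5 CPM are not a measure of change within known types.

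**Figure D3:**
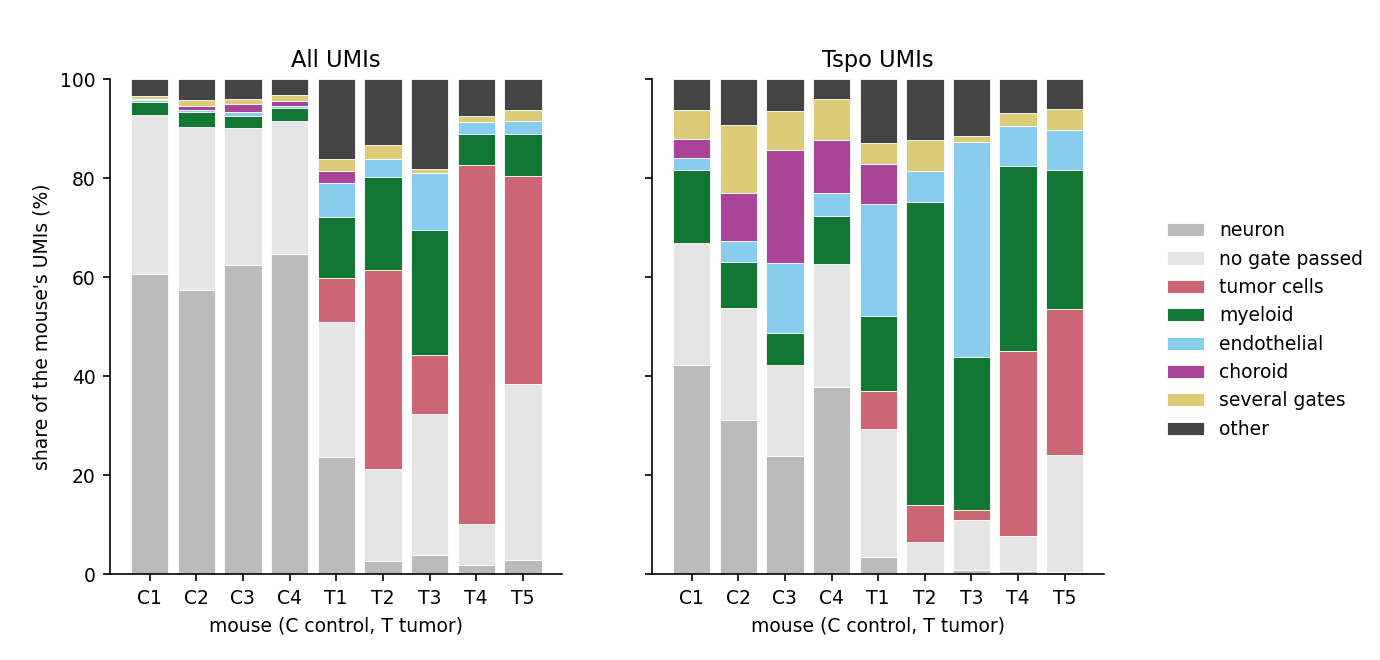
Share of all UMIs (left) and of Tspo UMIs (right) by marker-gated cell type for each mouse, in percent, with C for controls and T for tumors. In controls neurons hold 57.3% to 64.7% of all UMIs but 23.8% to 42.3% of the Tspo UMIs, and in tumors the proportions of myeloid, endothelial and tumor cells differ widely between mice.

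Within the myeloid gate of the tumors Tspo was also counted in cells with fewer than 3 UMIs of inflammatory genes. In tumors, cells with at least 3 UMIs of a list of 7 chemokine and cytokine genes had 226, 353, 132, 496 and 354 CPM in replicates 1 to 5. The other myeloid cells of the same tumors had 134, 393, 140, 469 and 207 CPM. The first were higher in 3 of 5 tumors, by 0.26 ± 0.44 on the log2 scale (exact sign-flip p = 0.375, adjusted over 2 splits 0.75). The first also had more UMIs per cell in every tumor, with medians of 9097.5 against 2792 in tumor replicate 3 and 6241 against 5877 in replicate 4. The split thus follows depth, and it cannot show Tspo in cells that lack inflammatory transcripts. The controls had 1 or 2 cells each with at least 3 UMIs of the list, so no comparison was made in them. As counted, control myeloid cells outside this list had 29.9 to 73.0 CPM, below every tumor's value for the like cells. This is the contrast by which the gene was chosen, and free RNA is part of it. With estimated free RNA taken away, the groups overlapped through control replicate 1, at 368 CPM over all its myeloid cells. The split by 5 microglial genes could be tested in 3 tumors, where cells with a microglial UMI were higher in 1 of 3, by -0.02 ± 0.42 (exact p = 1). The smallest exact p for 3 mice is 0.25. In the controls 8 to 14 myeloid cells had no microglial UMI, too few to test. They had 293, 96.5, 91.9 and 21.3 CPM in control replicates 1 to 4, from 1 to 8 Tspo UMIs, and the cells with a microglial UMI had 54.3, 31.5, 24.1 and 36.0 CPM. In control replicate 1, the 14 cells without one held 8 of the 26 Tspo UMIs.

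Partner genes of the translocator protein were called over all cells at a share not far from that of all genes, which is not a result about the list. The 16 genes of the list were tested across all genes with edgeR's quasi-likelihood test on UMIs summed per mouse. Over all cells, 7 of 15 tested rose and 4 fell, a share to be read against the 61.6% of 17598 genes called. Their median log2 change was 0.16, and that of all genes tested 0.04. Dbi, the diazepam-binding inhibitor and the best known endogenous ligand of the protein, rose most. It was at 1173 to 3854 CPM in tumors and 399 to 463 CPM in controls, a log2 change of 2.81 ± 0.45 (SE; edgeR adjusted p = 0.00077). Its carriers differed from those of Tspo, with 2939 ± 891 CPM in tumor cells and 4630 ± 2446 CPM in tumor astrocytes, against 702 ± 399 CPM in tumor myeloid cells. Acbd3, a Golgi adaptor that binds the protein and protein kinase A, rose by 1.08 ± 0.33 (edgeR adjusted p = 0.017).

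Other partner genes fell over all cells. Star, which delivers cholesterol to mitochondria, was at 2.45 ± 1.42 CPM in tumors and 18.5 ± 1.71 CPM in controls (log2 change -2.77 ± 0.34, edgeR adjusted p = 0.00028). Cyp11a1, the enzyme that opens steroid synthesis, went from 6.35 ± 1.65 CPM in controls to 0.618 ± 0.58 CPM in tumors (log2 change -3.41 ± 0.79, edgeR adjusted p = 0.0046). It had 28 UMIs in all tumors and 453 in all controls. It thus passed the filter on low counts through the controls, and its change rests on tumor levels near 0. Tspoap1, a binding protein of presynaptic terminals, fell by 1.96 on the log2 scale (edgeR adjusted p = 0.01), and Atad3a, a mitochondrial ATPase, fell by 0.86. Neurons held 10979 of the 14578 Tspoap1 UMIs in controls and were 58.1% of control cells and 10.0% of tumor cells (11.99% without tumor replicate 4). Stard3 and Fdx1, which act in cholesterol transport and steroid synthesis, rose by 1.03 and 1.27, and Fdxr, the reductase of Fdx1, was at 0.14 ± 0.27 (edgeR adjusted p = 0.65). Tspo2, the erythroid paralogue, had 21 UMIs in all tumors and 23 in all controls and was too low to test.

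Within myeloid cells, too, partner genes were called at a share not far from that of all genes, which is not a result about the list. Single channels and carriers changed in both directions. There 4 of 12 partner genes rose and 2 fell, beside 42.1% of 8949 genes called, with a median log2 change of 0.47 against -0.01 over all genes. Vdac2 (0.91 ± 0.22, edgeR adjusted p = 0.0059), a channel of the outer membrane, Slc25a5 (0.85 ± 0.21, adjusted p = 0.0066), an adenine nucleotide carrier, Dbi (1.26 ± 0.42, adjusted p = 0.031) and Fdx1 (0.71 ± 0.25, adjusted p = 0.04) rose. In CPM the groups overlapped for all 4, as for Vdac2 with 235 to 337 in tumors and 180 to 243 in controls, and Dbi with 222 to 1211 and 369 to 418. The edgeR fit rescales the libraries, so its changes are not ratios of CPM. With any of the controls or tumor replicate 4 left out, or with the replicate block, 2 partner genes rose in place of 4. Without tumor replicate 1, 2 or 3, 5 rose. Of their paralogues on the list, 2 fell. Vdac1 fell by 0.73 (edgeR adjusted p = 0.01) and Slc25a4 by 0.93 (edgeR adjusted p = 0.0057). Vdac3, the other channel, was at 0.14 ± 0.24 (edgeR adjusted p = 0.68), while its mean was 120 CPM in tumor and 148 CPM in control myeloid cells. Vdac1 was at 95.2 to 148 CPM in tumor and 242 to 273 CPM in control myeloid cells. The free RNA of the controls moves with these values, and 9 of the 12 myeloid gate markers themselves rose, by a median of 1.79. Its part in the changes of the partner genes, and of the 2 lists that follow, was not tested.

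In the other types few partner genes passed. In astrocytes Dbi alone of 7 tested rose, by 2.17 ± 0.33 (edgeR adjusted p = 2.3e-05), where 27.1% of 2254 genes were called. In neurons Star alone of 14 fell, by 2.15 (edgeR adjusted p = 0.013), where 7.97% of 11671 genes were called. It had 17 UMIs in the neurons of the tumors and 969 in those of the controls, so it passed the filter on low counts through the controls. With the replicate block, or without control replicate 2, 3 or 4, 0 partner genes fell in neurons, and at least 1 fell in each other alternative. Without tumor replicate 4, whose neuron gate failed, 1 of 15 rose and 4 fell, where 23.1% of 14598 genes were called. In endothelial cells 0 of 10 passed by edgeR and 0 by DESeq2, where edgeR called 1.77% and DESeq2 7.36% of 7921 genes with 2 controls. At an unadjusted p under 0.05, 4 of them were higher and 1 lower, beside 25.1% of all genes.

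**Figure D4:**
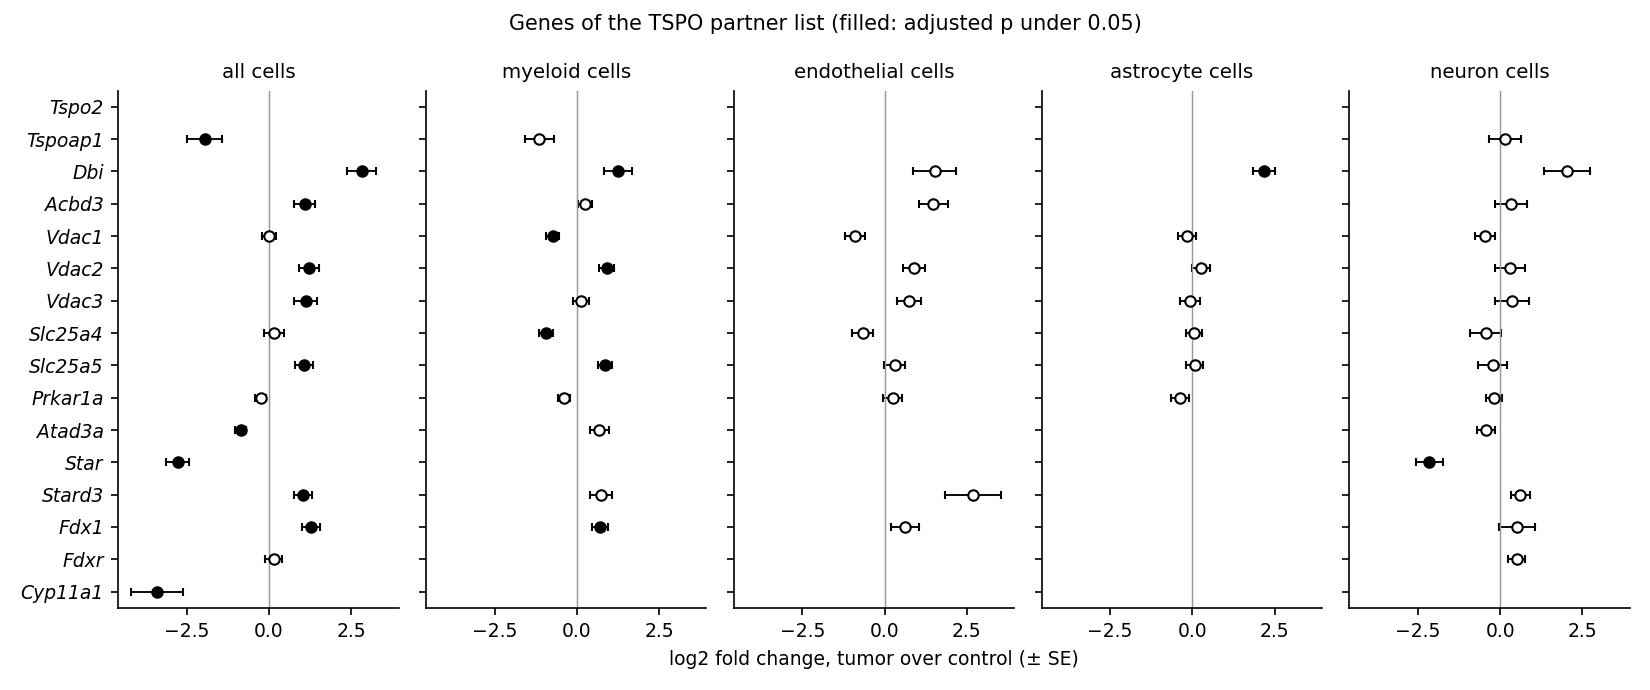
Log2 fold change of tumor over control (± SE) for the genes of the TSPO partner list in the 5 edgeR fits, filled where the adjusted p was under 0.05; genes too low to test have no point. Dbi lies to the right in all 5 panels, and Vdac1 and Slc25a4 lie to the left and Vdac2 and Slc25a5 to the right in myeloid cells.

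The other genes of the outer mitochondrial membrane were called at shares close to those of all genes over all cells and in myeloid cells, which is not a result about the list. Over all cells 15 of 27 rose and 3 fell, beside 61.6% of all genes called in either direction, with a median log2 change of 0.64 against 0.04. Hk2, the inducible hexokinase that docks on mitochondria, rose by 3.19 ± 0.55 (edgeR adjusted p = 0.0011), and Cpt1a, the gate of fatty acid oxidation, by 2.36 ± 0.21 (edgeR adjusted p = 9.8e-05). Mavs, the adaptor of antiviral RNA sensing, rose by 2.04, Tomm22, a receptor of protein import, by 1.88, and Mcl1, an inhibitor of apoptosis, by 1.74. In myeloid cells 9 of 24 rose and 3 fell, beside 42.1% of all genes called, with a median of 0.35 against -0.01. The neuron markers, at 4334 to 5316 CPM in control and 106 to 1678 CPM in tumor myeloid cells, moved with these values. Hk1, the constitutive brain hexokinase, fell by 1.86 (edgeR adjusted p = 0.00031) while Hk2 rose by 1.20 ± 0.27 (edgeR adjusted p = 0.0043). Mfn2, a mitochondrial fusion protein, fell by 1.21 and Fis1, of the fission machinery, rose by 0.92. In endothelial cells 0 of 23 passed by edgeR or DESeq2, beside 1.77% and 7.36% of all genes, and 4 were higher at an unadjusted p under 0.05, beside 25.1% of all genes in either direction. In astrocytes 0 of 8 passed by edgeR and 0 by DESeq2, beside 27.1% and 21.5% of all genes, and 0 were under 0.05 unadjusted, beside 37.4%. In neurons 0 of 24 passed by edgeR and 1 by DESeq2, beside 7.97% and 24.2% of all genes, and 0 were under 0.05 unadjusted by edgeR, beside 23.6%. Without tumor replicate 4, 1 of 25 rose and 2 fell in neurons by edgeR, beside 23.1% of all genes.

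Genes of glial reactivity rose over all cells and in myeloid cells. Counts in the other types cannot be compared with these, since fewer list genes could be tested there and smaller shares of all genes were called. Over all cells 16 of 16 rose, beside 61.6% of all genes called, with a median log2 change of 3.35. Of these, Cst7 had 28 UMIs and Itgax 16 in all controls, and Lcn2 had 133, at 0.063 to 3.67 CPM. Each of them passed the filter on low counts through the tumors. The changes of Cst7 and Itgax rest on control levels near 0, and that of Lcn2 on low and uneven ones. In myeloid cells 11 of the 16 could be tested and all of these rose, beside 42.1% of all genes called, with a median of 2.58. The largest changes over all cells were those of Cst7 (6.64 ± 0.94), Gpnmb (5.63 ± 1.08), Spp1 (5.58 ± 1.32), Lcn2 (5.42 ± 0.95), Vim (4.44 ± 0.48) and Itgax (4.21 ± 0.63). Cst7, Gpnmb, Spp1 and Itgax are known from microglia and macrophages near damage, Lcn2 and Vim from reactive astrocytes, and Vim also from progenitor cells. Their carriers in the tumors were not these cells alone. Spp1 was at 974 ± 1242 CPM in tumor cells, from 18.97 to 2689 CPM, and at 709 ± 627 CPM in myeloid cells. Gpnmb was at 38.8 ± 36.9 CPM in tumor cells and 17.4 ± 20.0 CPM in myeloid cells. Lcn2 was at 337 ± 288 CPM in endothelial cells and 16.9 ± 13.5 CPM in astrocytes. Cst7 and Itgax did have most of their UMIs in myeloid cells, 2425 of 2721 and 239 of 290. In myeloid cells Cst7 had 5 UMIs in all controls and 2425 in the tumors, so it passed the filter on low counts through the tumors, and its fitted change of 6.77 ± 1.04 (edgeR adjusted p = 0.0005) rests on a control level near 0. There Spp1 rose by 5.24 ± 0.99 (edgeR adjusted p = 0.0014) and Apoe, a lipid carrier, by 3.74 ± 0.63 (edgeR adjusted p = 0.00077). In astrocytes 4 of 5 rose, beside 27.1% of all genes called, with Vim at 2.53 and the intermediate filament gene Gfap at 2.87. There 8 of the 10 astrocyte gate markers rose too, by a median of 1.12 over the 10, and the neuron markers were at 971 to 1849 CPM in tumor and 2803 to 4289 CPM in control astrocytes. Their part in these changes was not tested. In neurons 2 of 8 rose, Gfap and Vim, beside 7.97% of all genes called, and 5 of 12 rose without tumor replicate 4, beside 23.1%. The number was 0 with the replicate block and without control replicate 1 or 4, and 1 without control replicate 2 or 3. It was 3 to 5 when any of the tumors was left out. The astrocyte markers were at 1234 to 4902 CPM in the neurons of the tumors and 1287 to 1448 CPM in those of the controls, and their part was not tested. In endothelial cells 0 of 10 passed by edgeR and 3 by DESeq2, beside 1.77% and 7.36% of all genes, and 4 were higher at an unadjusted p under 0.05, beside 25.1%. Among these 4, Lcn2 had 0 UMIs in the controls and 1000 in the tumors, and Trem2 had 1 and 72, so both entered the fit through the tumors.

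The genes whose pattern was most like that of Tspo were Bst2, Vamp8, Ninj1, Gng5 and Capg. Likeness is Pearson's r of log2(CPM + 10) over 74 profiles of a cell type in a mouse, 12 types in all, among 7868 genes. It was 0.85 for Bst2, 0.82 for Vamp8, 0.81 for Ninj1, 0.81 for Gng5 and 0.80 for Capg. The profiles share mice, libraries and free RNA, and r is given as a description. Bst2, an interferon-induced membrane protein, had 695 ± 515 CPM in myeloid and 451 ± 333 CPM in endothelial cells of the tumors, and 118 ± 75.2 CPM in tumor cells. Capg, an actin-capping protein, had 100 ± 70.0 and 154 ± 53.7 CPM in the same types and 2.06 ± 1.45 CPM in tumor cells. Vamp8, a protein of vesicle fusion, Ninj1, a protein of plasma membrane rupture, and Gng5, a G protein subunit, were at 260, 178 and 783 CPM in tumor myeloid cells and at 43.1, 15.5 and 159 CPM in tumor neurons. No marker of a gate was among the 5.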

How the data were processed

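Droplet matrices of 9 mice were used, whose smallest barcodes held 468 to 517 UMIs. The authors made them with Cell Ranger (6.1.2 in the matrix headers, 7 in the submitters' processing notes) on mm10 with added transgene sequences, and the deposited values are UMI counts without normalization. Members, gene lists and tests were chosen with earlier results of these data known. In control replicate 4 the lists are shorter than the matrix, so its added sequences were not used.

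Starting from the 10000 largest barcodes of a library, those with 200 to 6000 genes were taken. In tumor replicate 3 all 9001 were considered, so its smallest barcodes served both as candidates and as free RNA. A Gaussian mixture (scikit-learn 1.9.0) was fitted per library to mitochondrial share and gene number together, and the component of lower mitochondrial share was kept. The cutoff differed between mice. Barcodes removed in tumor replicates 4 and 5 averaged 3.67% and 4.84% mitochondrial UMIs, below the 7.60% to 8.72% of cells kept in controls. A 10% limit kept 9177 and 9138 cells there in place of 5099 and 3644. The cells with the highest Scrublet scores (Scanpy 1.11.5) were removed at 0.8% per 1000 cells. A gate asked for 4 UMIs of 2 markers, at 4 times the free RNA level and 3 times the next gate. Cells near the limit had at most 5 UMIs or under 5 times free RNA. Free RNA in a gate was estimated, after seeing the data, from neuron markers relative to the 3000 smallest barcodes.

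Exact permutation tests used SciPy 1.17.1. UMIs summed per mouse were tested with edgeR 4.0.16 (R 4.3.3; TMM, filterByExpr, Benjamini-Hochberg over all genes, threshold 0.05) and, as an alternative, DESeq2 1.42.0. SE is the log2 change over the root of F. Scripts were tested on simulated data. Named genes are the partner list, up to 8 genes of the other lists with the largest changes past the threshold, and the 5 genes most like Tspo. Alternatives were all barcodes, a 10% mitochondrial limit, doublets kept, 500 genes, a stricter gate, the fusion sequence alone, a pseudocount of 1, thinning, no filter, a replicate block, each mouse left out and, added later, at least 10 gated cells. Labels do not tie replicates to litters, so p-values measure the spread between these mice.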

Additional observations from a re-analysis of the deposited data

Results flagged for a closer look

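Among the 10 groups of 4 or 5 mice tested for an outlying value of Tspo, 1 was flagged, and chance flags about 1 group in 20. The astrocyte-gated cells of control replicate 3 had 24.3 CPM of Tspo, from 4 UMIs in 36 cells, while the other 3 controls had 0. That gap is the whole range of the group. The cause was not tested. A count of 0 allows up to 25.7 to 57.6 CPM in the other controls, which is above 24.3 CPM.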

How the results depend on the processing

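Among the alternatives other than leaving out a mouse, 195 values were classed as the same and 19 as moved. A further 3 were reversed in sign, 7 stronger and 2 weaker. For a log2 difference between tumors and controls, moved means a shift of at least the larger group SD without a change of sign. For Tspo, tumor minus control on the log2 scale, a pseudocount of 1 CPM gave 3.06 over all cells, 4.83 in astrocytes and 1.35 in neurons, by construction larger for low values. The log2 ratio of thinned shares of cells gave 3.005, 3.50 and 1.59. With estimated free RNA taken away, an alternative chosen after seeing the data, it was 1.16 in myeloid cells, and turned to -0.56 in endothelial cells. Between types, endothelial minus astrocyte and endothelial minus neuron passed with all deposited barcodes (2.56 and 3.13), with no doublets removed (2.52 and 3.24) and, added after seeing the data, with at least 10 gated cells (2.67 and 3.25). A mitochondrial limit of 10% turned tumor cells minus astrocyte to 0.13, lost the call of myeloid minus astrocyte at 2.75 and gave a tumor-control difference of myeloid minus neuron of 1.34 in place of 1.60, which is a description. The stricter gate lost myeloid minus neuron at 2.56. The pseudocount of 1 turned the tumor-control difference of endothelial minus neuron to -0.57. The cause of these changes was not tested.

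Leaving out each mouse moved myeloid minus astrocyte between 1.59 and 1.99 and myeloid minus neuron between 2.33 and 2.69. The tumor-control difference of myeloid minus astrocyte ranged from -0.87 to 0.08 (0.0796 without control replicate 1 and 0.0456 without tumor replicate 1). That of endothelial minus neuron ranged from -0.06 to 0.22 (-0.065 without tumor replicate 1 and -0.00037 without tumor replicate 5). The microglial split ranged from -0.24 to 0.17 (0.171 without tumor replicate 2 and 0.0219 without tumor replicate 4). Partner genes passing ranged from 3 to 8 in myeloid cells and 0 to 5 in neurons, reactivity genes from 0 to 5 in neurons, and outer membrane genes from 0 to 1 in astrocytes and 0 to 3 in neurons.

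Whether replicate numbers pair the mice could not be settled. Same-numbered mice correlated at 0.009 to 0.103 in 4 pairs, 1 of them over 0.1, and the other pairs at -0.148 to 0.088. With the replicate block, Tspo over all cells differed by 2.46. The replicate block gave 1 partner, 2 outer membrane and 3 reactivity genes in endothelial cells, and 0 partner and 0 reactivity genes in neurons. DESeq2 gave 3 reactivity genes in endothelial cells, and 2 partner, 1 outer membrane and 5 reactivity genes in neurons. Without a filter on low counts 3 reactivity genes passed in endothelial cells, 9 in astrocytes and 5 in neurons. Total calls in neurons were 2823 by DESeq2 and 0 with the replicate block in place of 930, and in endothelial cells 583, 1146 and 140. Without tumor replicate 4, 3377 genes passed in neurons. The 10% limit left too few endothelial cells or astrocytes in a group for list counts. Depth limits the controls most, with 11 and 27 endothelial Tspo UMIs and 0 to 4 in astrocytes.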
